A study of Mus musculus with 12 samples.

Results

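The Ly6 cluster genes described here are Ly6d, Ly6k, Gml, Gml2, Ly6e, Ly6i, Ly6a, Ly6c1, Ly6c2 and Ly6g, 10 of the 35688 genes in the table of colon RNA. They were chosen by gene symbol, after earlier results of the same data had shown that several of them differed in mean between the genotypes and varied together across colons. That contrast and that covariation are therefore given as descriptions, without a test. The table gave an abundance for each transcript, corrected for transcript length, and the abundances of all transcripts of a gene identifier were summed.

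Full-thickness colons came from mice aged 2 weeks, 1 animal per library. Il10, which encodes the cytokine interleukin 10, a brake on inflammation, was deleted in every animal. The 5 Il10-/- colons were set against 6 Il10-/- Tnfr1-/- colons, whose mice carried a second deletion, of the gene Tnfrsf1a for TNF receptor 1. Mice without Il10 are prone to colitis, and the series asks what the loss of this receptor does to such a colon early in life. No wild-type colon and no Tnfr1-/- colon with intact Il10 was analysed here, so each level is relative to another Il10-/- colon, and neither sex, litter nor housing was used as a factor. Whole colon mixes epithelium, muscle, connective tissue, vessels and immune cells, so fewer cells of a type and less RNA per cell cannot be told apart.

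The Ly6 family encodes small proteins built on a fold of disulfide-bonded loops, most of them tethered to the outer face of the cell membrane by a glycosylphosphatidylinositol anchor. Mouse immunology leans on several of them as surface markers: Ly6G for neutrophils, Ly6C for monocytes and some endothelial and T cells, and Ly6A, known as Sca-1, for blood stem cells and for epithelium under repair. Their genes arose by repeated local duplication on chromosome 15, and many members are induced by interferons.

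On mm10 the 10 genes spanned 397071 bases of chromosome 15, from the start of Ly6d (ENSMUSG00000034634, chr15:74762056-74763620, minus strand) to the end of Ly6g (ENSMUSG00000022582, chr15:75155240-75159126, plus strand). Between them, in order, lay Ly6k (chr15:74796874-74799986, minus), Gml (chr15:74813452-74818815, minus), Gml2 (chr15:74819071-74834871, plus), Ly6e (chr15:74955051-74959905, plus), Ly6i (chr15:74979534-74983430, minus), Ly6a (chr15:74994877-74998031, minus), Ly6c1 (chr15:75044018-75048830, minus) and Ly6c2 (chr15:75108158-75111970, minus). All 10 are annotated as protein-coding. Gml and Gml2 are the closest pair, pointing away from each other with 255 bases between them.

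The first 90 coding bases of 5 members are shown because they make visible how alike the copies are, which bears on how well reads can be told apart. Each is read 5′ to 3′ on the coding strand of mm10 from the start codon of the gene's transcript of highest mean abundance, and capitals mark bases that differ from Ly6c1 at the same place. The start codons lie at chr15 position 75048511 for Ly6c1, 75111667 for Ly6c2, 74997604 for Ly6a, 74983059 for Ly6i and 75155645 for Ly6g.
Ly6c1: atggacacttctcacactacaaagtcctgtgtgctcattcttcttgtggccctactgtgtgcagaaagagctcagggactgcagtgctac
Ly6c2: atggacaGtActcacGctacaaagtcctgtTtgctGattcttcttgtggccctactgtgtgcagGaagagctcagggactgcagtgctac
Ly6a: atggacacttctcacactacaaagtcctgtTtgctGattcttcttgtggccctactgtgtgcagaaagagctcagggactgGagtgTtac
Ly6i: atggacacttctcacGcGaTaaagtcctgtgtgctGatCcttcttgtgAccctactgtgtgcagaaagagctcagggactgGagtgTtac
Ly6g: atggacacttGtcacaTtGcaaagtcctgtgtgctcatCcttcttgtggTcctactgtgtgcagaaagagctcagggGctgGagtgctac
Over these 90 bases Ly6a differed from Ly6c1 at 4 places, Ly6c2 at 6, Ly6g at 7 and Ly6i at 8.

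How far a transcript can be separated from its relatives was counted as the share of its 31-base words that occur in no other gene of the GENCODE reference. Of the leading transcript of each gene, 100% of words belonged to no other gene for Ly6d and Ly6k, 98.6% for Ly6e, 90.5% for Ly6g, 80.3% for Ly6i and 77.9% for Ly6a. The shares were 75.5% for Gml and 67.7% for Gml2, whose shared words lay in each other. Ly6c1 and Ly6c2 had the smallest shares, 42.7% and 46.2%, and 49.0% of the words of the Ly6c1 transcript also occurred in Ly6c2 and 11.9% in Ly6a. The split of signal between Ly6c1 and Ly6c2, and between Gml and Gml2, is therefore uncertain, while Ly6d, Ly6e and Ly6g rest mostly on sequence of their own.

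**Figure D1:**
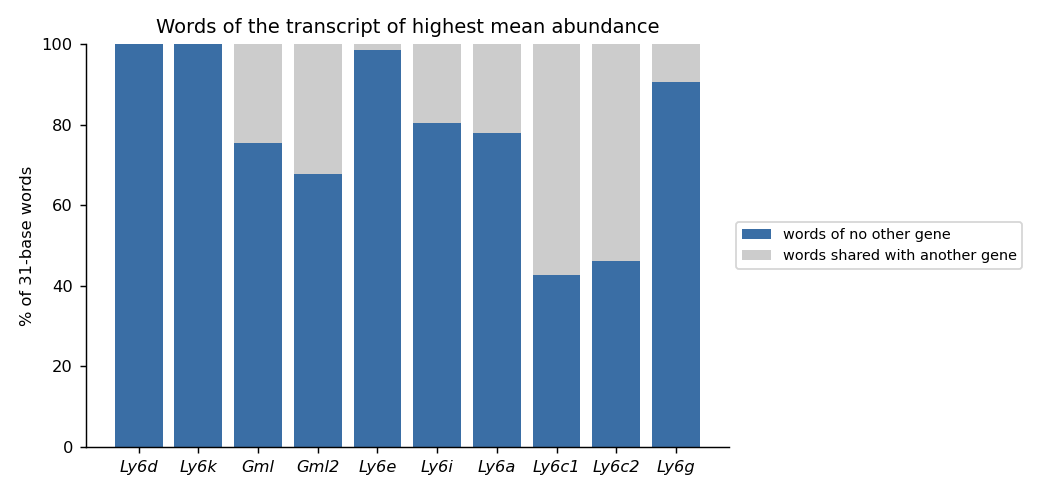
Share of 31-base words of each gene's transcript of highest mean abundance (y axis, percent) that occur in no other gene of the reference (blue) or also in another gene (grey), with genes in chromosome order on the x axis. Ly6c1 at 42.7% and Ly6c2 at 46.2% have the least sequence of their own, and Ly6d and Ly6k share none.

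The upstream sequences of Ly6g and Ly6c1 were also close. They are shown because these 2 genes varied together across colons, and both come from RefSeq on GRCm38.p6, read 5′ to 3′ on the gene's strand and ending before the annotated gene. Ly6g covers chr15:75155011-75155239 on the plus strand and Ly6c1 covers chr15:75048838-75049087 on the minus strand. Capitals mark the longest run found in both, 37 bases, which ends 29 bases before the RefSeq start of Ly6g and 73 bases before that of Ly6c1. Whether shared upstream sequence bears on how the 2 genes varied was not tested.
Ly6g: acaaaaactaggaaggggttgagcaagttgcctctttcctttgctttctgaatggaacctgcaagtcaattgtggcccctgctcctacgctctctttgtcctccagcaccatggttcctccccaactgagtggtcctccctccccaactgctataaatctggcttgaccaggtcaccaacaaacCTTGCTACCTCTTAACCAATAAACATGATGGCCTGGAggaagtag
Ly6c1: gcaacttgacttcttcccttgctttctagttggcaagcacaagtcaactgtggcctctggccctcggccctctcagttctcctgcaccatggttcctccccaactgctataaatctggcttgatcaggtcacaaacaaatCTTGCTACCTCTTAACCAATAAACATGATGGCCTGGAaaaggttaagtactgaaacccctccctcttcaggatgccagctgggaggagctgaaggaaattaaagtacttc
RefSeq promoter windows of 300 bases were matched for 3 of the 10 members, Ly6g, Ly6c1 and Ly6c2, with 6 windows in all. The interferon-gamma activated site TTCNNNGAA, the interferon-stimulated core GAAANNGAAA and the NF-kB consensus were searched on both strands. None of the 6 windows held any of them, against 8.30%, 3.44% and 8.46% of all 32851 windows, so these letters are not in these windows.

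The abundances of the 11 libraries added up to 804109 at the lowest and 1378971 at the highest, with 41.7% to 55.1% of transcripts listed at 0. Tnfrsf1a lay between 30.6 and 78.1 in Il10-/- and between 12.0 and 17.0 in Il10-/- Tnfr1-/- colons, so the groups did not overlap for the targeted gene. Il10, deleted in all animals, still had 9.06 to 22.9 in Il10-/- and 3.27 to 7.23 in Il10-/- Tnfr1-/- colons, and values per transcript do not place this signal along the gene. All 14 markers of colonic epithelium examined, Krt19, Krt8 and Car1 the most abundant, were above 1 in at least 6 samples. Over all 13293 genes that passed that filter, limma with Benjamini-Hochberg adjustment called 0 genes between the genotypes at 0.05, and 1117 genes (8.4%) had an unadjusted p under 0.05.

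Of the 10 members, 7 passed the filter: Ly6a, Ly6c1, Ly6d, Ly6e, Ly6g, Gml and Gml2. All 7 had a lower mean log2 abundance in Il10-/- Tnfr1-/- than in Il10-/- colons, a direction that 44.8% of all tested genes shared. A log2 fold change of -1 or lower was found for 6 of them (0.993% of all tested genes), and of -2 or lower for 3 (0.15%). None of the 7 was called and none had groups that did not overlap, against 0.271% of all tested genes with all Il10-/- Tnfr1-/- colons lower, 0.316% with all of them higher, and 0.587% either way. The median log2 fold change was -1.88 over the 7 and 0.05 over all tested genes. Without Il10-/- replicate 1, 6 of 7 were lower and 5 were at -1 or lower, with a median of -1.75. Because the members were picked with this contrast known, nothing is read from these counts.

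**Figure D2:**
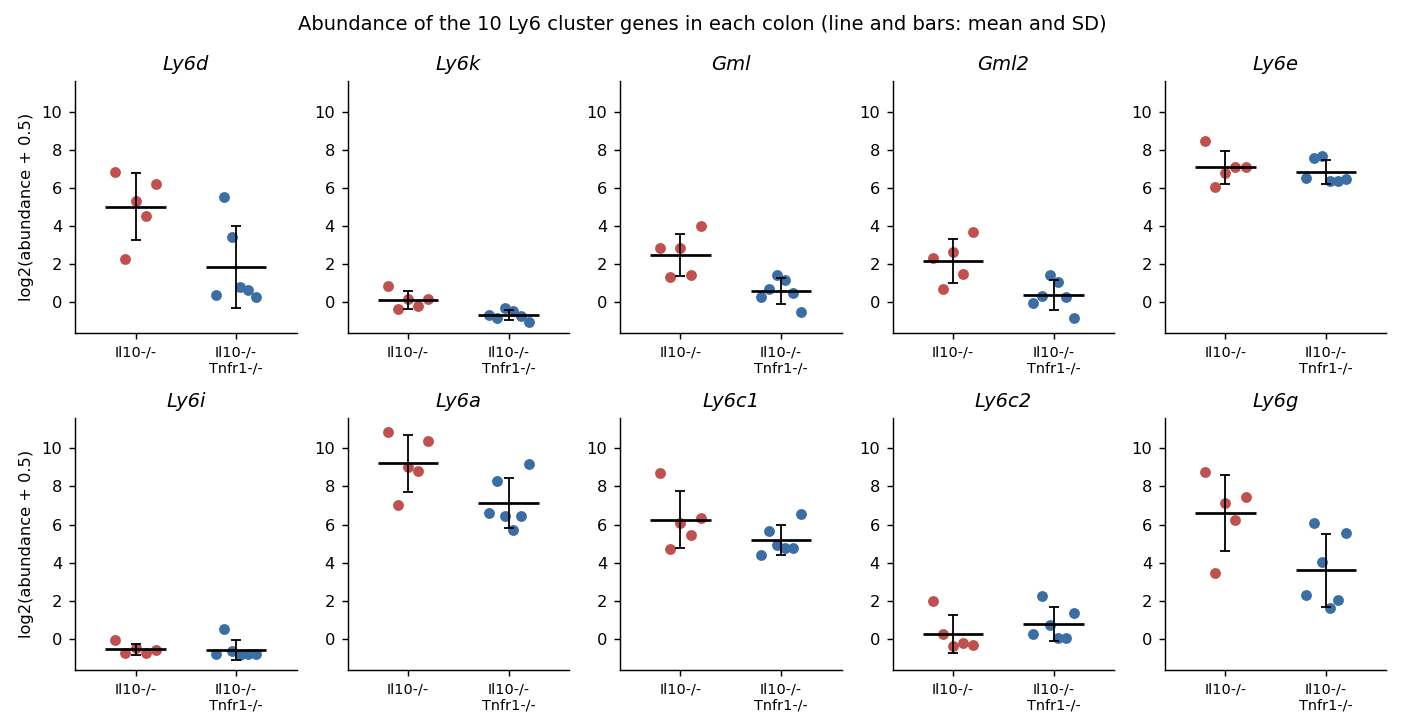
Abundance of each of the 10 genes in each colon, as log2(abundance + 0.5) on the y axis, for 5 Il10-/- (red) and 6 Il10-/- Tnfr1-/- (blue) mice on the x axis. Points are colons, horizontal lines the mean and bars the SD, and the red and blue points overlap in every gene. In Gml and in Ly6k, which did not pass the filter, 5 of 6 Il10-/- Tnfr1-/- colons lie below the lowest Il10-/- colon.

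Ly6g encodes the surface protein by which mouse neutrophils are commonly sorted. Its abundance in Il10-/- replicates 1, 2, 3, 5 and 6 was 438, 10.6, 139.5, 76.6 and 171. In the 6 Il10-/- Tnfr1-/- colons it ranged from 2.58 through a median of 10.4 to 66.8. In all, 4 Il10-/- colons lay above every Il10-/- Tnfr1-/- colon, and Il10-/- replicate 2 lay among the latter. The means were 167 ± 163 (SD, n = 5) and 23.4 ± 27.0 (SD, n = 6), with a log2 fold change of -3.00 ± 1.01 (SE) that was -2.46 without Il10-/- replicate 1 and -3.79 without Il10-/- replicate 2. All of this signal was on 1 transcript, ENSMUST00000190262.1, and the other, ENSMUST00000023246.3, was at 0 in every colon. The highest colon had 169.7 times the abundance of the lowest, and the spread within genotypes was larger than that of 99.4% of tested genes.

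Ly6c1 and Ly6c2 encode the nearly identical proteins detected together as Ly6C on monocytes, with Ly6c1 also known from endothelium. Ly6c1 was at 422, 25.7, 66.6, 43.3 and 82.3 in Il10-/- replicates 1, 2, 3, 5 and 6, and at 20.8 to 93.2 with a median of 28.6 in the 6 Il10-/- Tnfr1-/- colons. Only Il10-/- replicate 1 lay above the whole other group. The log2 fold change of -1.08 ± 0.61 (SE) became -0.46 without that colon.

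Ly6c2 did not pass the filter, with 0.28 to 3.49 in Il10-/- and 0.55 to 4.28 in Il10-/- Tnfr1-/- colons, overlapping throughout. Of the members, it alone had the higher mean log2 abundance in Il10-/- Tnfr1-/- colons, by 0.52 ± 0.51 (SE) in a fit without the filter. The abundance of Ly6c1 was spread over 6 transcripts above 1 somewhere. ENSMUST00000179762.7 and ENSMUST00000065408.15, of which 0% and 0.491% of words belong to that transcript alone, traded places: the former was at 0.125% of the gene's abundance in Il10-/- replicate 2, where the latter was at 55.9%, and the latter was at 0.077% in Il10-/- Tnfr1-/- replicate 2, where the former was at 54.0%. As for every gene, the summed value was used.

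Ly6a encodes Sca-1, a marker of blood stem cells that is induced by interferons and appears in regenerating gut epithelium. It was the most abundant member, with a mean above that of 98.0% of tested genes. The values in Il10-/- replicates 1, 2, 3, 5 and 6 were 1865, 129, 514, 441 and 1312, and those of the 6 Il10-/- Tnfr1-/- colons ran from 53.0 through a median of 92.8 to 587. Of the 6 Il10-/- Tnfr1-/- colons, 4 lay below the lowest Il10-/- colon, while replicates 2 and 6, at 312 and 587, lay within the Il10-/- range. The means were 852 ± 715 (SD, n = 5) and 204 ± 209 (SD, n = 6), with a log2 fold change of -2.08 ± 0.74 (SE) that ran from -2.63 without Il10-/- replicate 2 to -1.67 without Il10-/- replicate 1.

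The transcripts of Ly6a also differed between colons. ENSMUST00000187994.6 held 15.9% to 77.8% of the gene's abundance and ENSMUST00000189068.6 held 8.77% to 52.5%. ENSMUST00000023248.12 was at 588 in Il10-/- replicate 6 and 92.1 in replicate 3, at 1.26 in Il10-/- Tnfr1-/- replicate 5, and at 0 in 6 of the 11 colons. None of its words is found in that transcript alone, so its presence rests on how the quantification divided shared sequence.

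**Figure D3:**
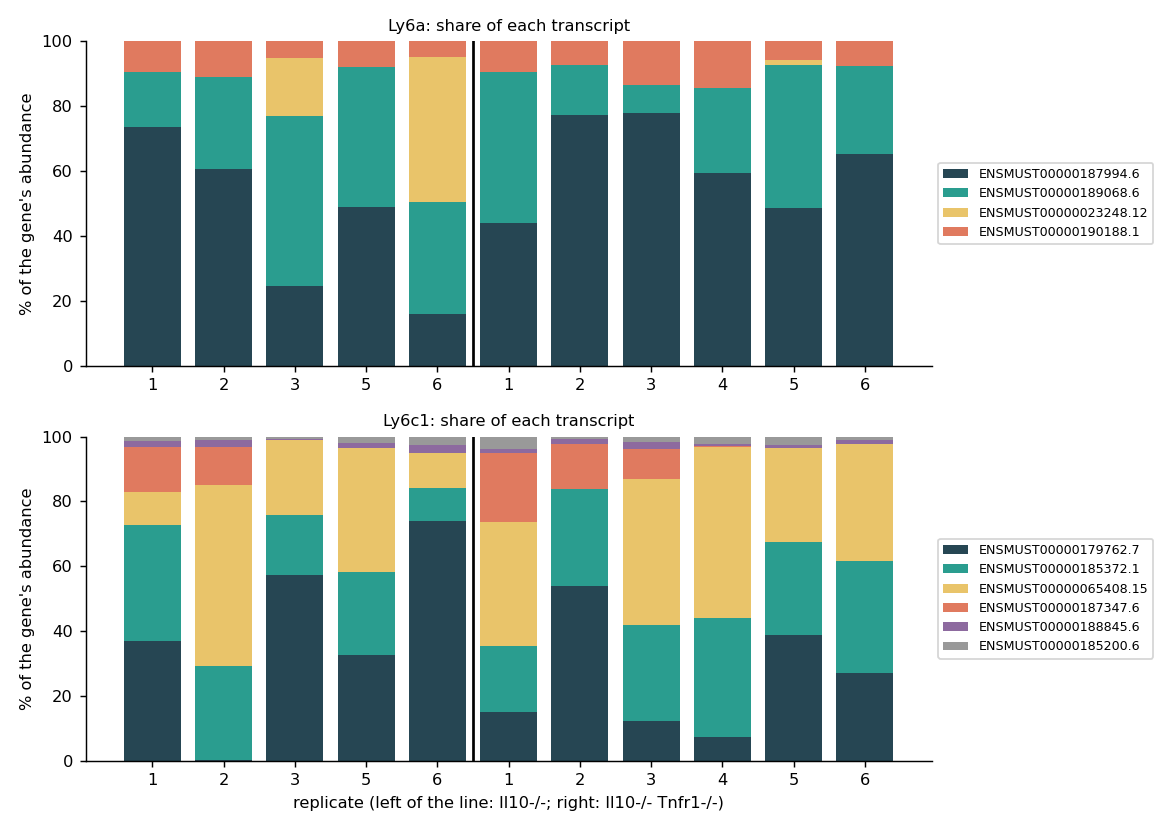
Share of each gene's summed abundance (y axis, percent) carried by each transcript of Ly6a (top) and Ly6c1 (bottom) in each colon (x axis, replicate number, Il10-/- left of the line and Il10-/- Tnfr1-/- right of it). The Ly6a transcript ENSMUST00000023248.12 is large in Il10-/- replicate 6 (44.8%) and replicate 3 (17.9%), and 2 nearly identical Ly6c1 transcripts take each other's place.

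Ly6i, which lies between Ly6e and Ly6a, was below 1 in every colon, with at most 0.468 in Il10-/- and 0.932 in Il10-/- Tnfr1-/- colons. Its log2 fold change in the fit without the filter was -0.03 ± 0.25 (SE).

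Ly6e, a broadly expressed interferon-inducible member that affects the entry of some viruses, was the steadiest of the 7. It was at 345, 64.9, 108, 137 and 138 in Il10-/- replicates 1, 2, 3, 5 and 6, and at 82.4 to 205 with a median of 88.9 in Il10-/- Tnfr1-/- colons. Its means were 159 ± 108 (SD, n = 5) and 123 ± 57.9 (SD, n = 6), and all Il10-/- Tnfr1-/- colons lay within the Il10-/- range, below Il10-/- replicate 1. The log2 fold change of -0.26 ± 0.40 (SE) turned to 0.078 without Il10-/- replicate 1. ENSMUST00000191436.6 carried 72.3% to 94.9% of it.

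Ly6d, a marker of early B-lineage cells and of stratified epithelium, was at 114, 4.27, 39.4, 22.6 and 72.5 in Il10-/- replicates 1, 2, 3, 5 and 6. In the 6 Il10-/- Tnfr1-/- colons it ranged from 0.733 through a median of 1.18 to 46.3. Of these 6, 4 were below the lowest Il10-/- colon, while replicates 2 and 3, at 46.3 and 10.1, were within the Il10-/- range. The means were 50.6 ± 43.6 (SD, n = 5) and 10.1 ± 18.1 (SD, n = 6), with a log2 fold change of -3.17 ± 1.04 (SE), the lowest of the members. It was -3.90 without Il10-/- Tnfr1-/- replicate 2, -3.86 without Il10-/- replicate 2 and -2.71 without Il10-/- replicate 1. Ly6d has 1 transcript in the table and shares no word with another gene.

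Ly6k, known mainly from testis, did not pass the filter: it exceeded 1 in Il10-/- replicate 1 alone, at 1.32, and was at 0 in Il10-/- Tnfr1-/- replicate 6. Its log2 fold change in the fit without the filter was -0.80 ± 0.22 (SE).

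Gml and Gml2, neighbours named for their resemblance to a human glycosylphosphatidylinositol-anchored protein of the same family, were low but above 1 in 8 and 7 colons. Gml was at 6.69, 2.03, 6.60, 2.19 and 15.4 in Il10-/- replicates 1, 2, 3, 5 and 6, and between 0.22 and 2.22 with a median of 1.02 in Il10-/- Tnfr1-/- colons. Gml2 was at 4.49, 1.12, 5.82, 2.32 and 12.3, and between 0.074 and 2.19 with a median of 0.747. For both, Il10-/- replicate 6 was highest and Il10-/- Tnfr1-/- replicate 6 lowest. In Gml a single Il10-/- Tnfr1-/- colon, replicate 3 at 2.22, lay above the lowest Il10-/- colon. The log2 fold changes were -1.88 ± 0.49 (SE) and -1.79 ± 0.52 (SE).

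The first digit of a mouse's name differed between groups in part, and what it stands for is not given in the labels. Names starting with 1 held 3 Il10-/- and 2 Il10-/- Tnfr1-/- colons, and within them the log2 fold changes were -2.26 for Ly6g, -1.85 for Gml, -1.82 for Ly6d, -1.73 for Gml2, -1.51 for Ly6a, -1.45 for Ly6c1 and -0.04 for Ly6e. The direction was that of all 11 colons for each of the 7, and Ly6d shifted the most, from -3.17 to -1.82. The other first digits held 1 genotype each, so there digit and genotype cannot be told apart. With the first digit as a covariate, limma called 0 of 13293 genes. In that fit 238 genes had an unadjusted limma p under 0.05, against 1117 without the covariate.

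The colons fell in much the same order for several members. Il10-/- replicate 1 was the highest of the 11 for Ly6a, Ly6c1, Ly6d, Ly6e, Ly6g and Ly6k, and Il10-/- replicate 6 was highest for Gml and Gml2 and ranked 2 for Ly6a, Ly6d, Ly6g and Ly6k. Il10-/- replicate 2 was the lowest Il10-/- colon for all 7 members that passed the filter. In the other group, replicates 2 and 6 stood high for Ly6a, Ly6c1 and Ly6g, but for Ly6d replicates 2 and 3 did, and replicate 6 was the lowest colon for Ly6d, Gml and Gml2.

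**Figure D4:**
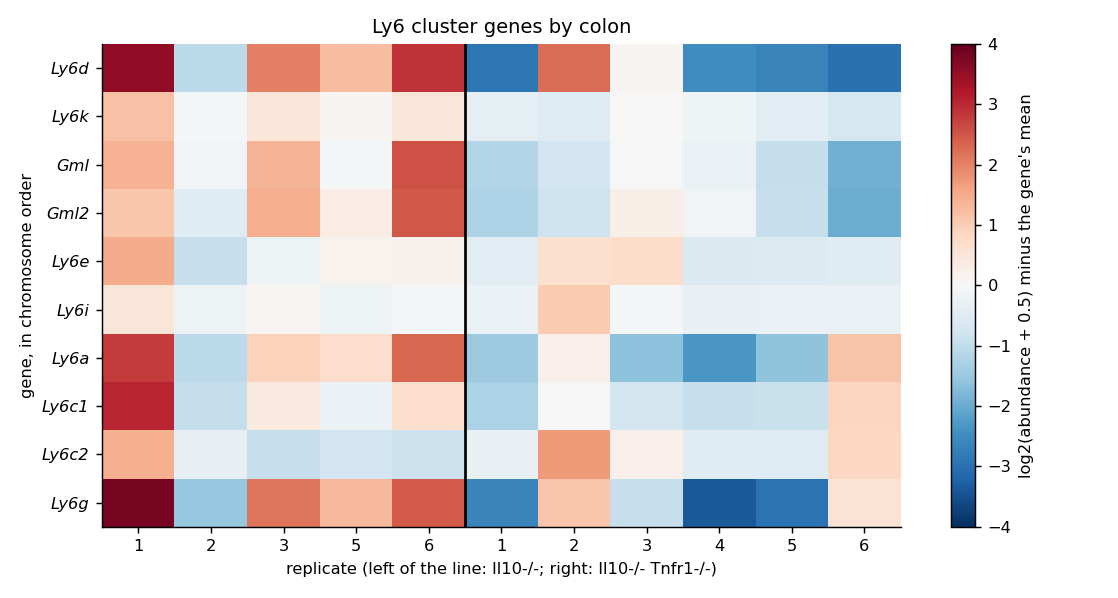
Each gene's log2(abundance + 0.5) minus its mean over the 11 colons (colour, from -4 in blue to 4 in red), with genes in chromosome order on the y axis and colons by replicate number on the x axis, Il10-/- left of the line and Il10-/- Tnfr1-/- right of it. Il10-/- replicate 1 is the reddest column for Ly6d, Ly6e, Ly6a, Ly6c1 and Ly6g, and Il10-/- replicate 2 is pale or blue throughout; Ly6k, Ly6i and Ly6c2 are near or below 1 unit of abundance.

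Over the 11 colons, Pearson correlations of the 21 pairs of members that passed the filter ran from 0.413 to 0.987. Their median was 0.677. All genes of a colon share its library depth and tissue makeup, and neither was adjusted for. The median correlation of a member with all tested genes lay between -0.08 and 0.07. The closest pair was Gml and Gml2 (0.987), the neighbours that share words, followed by Ly6a and Ly6g (0.950), Ly6a and Ly6c1 (0.885), Ly6d and Ly6g (0.864) and Ly6c1 and Ly6g (0.852). After centring each genotype on its own mean, Ly6a and Ly6g stood at 0.916 and the median of the 21 pairs at 0.559. Without Il10-/- replicate 1 that median was 0.544.

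The Ly6a, Ly6c1 and Ly6g set and the Gml pair parted within the 6 Il10-/- Tnfr1-/- colons. There Ly6a and Ly6g were at 0.876 and Ly6a and Ly6c1 at 0.928, while Ly6a and Gml were at -0.726 and Ly6a and Gml2 at -0.735. Ly6g was at -0.317 with Gml and -0.335 with Gml2. Replicate 6 of this group was its highest colon for Ly6a, at 587, and its lowest for Gml and Gml2, at 0.22 and 0.074. Gml and Gml2 reached at most 2.22 and 2.19 in this group, near the floor, and values without replicate 6 were not computed. Ly6d and Ly6e were at 0.918 in these 6 colons. Shared words between Ly6a and Ly6c1 can move them together, and the Ly6c1 transcript with the most sequence of its own, ENSMUST00000188845.6 (67.2% of words in no other gene), stood at 0.812 with Ly6a and 0.772 with Ly6g over the 11 colons. That transcript was chosen after the data were seen and was above 1 in 2 colons.

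Genes outside the cluster with the most similar profiles over the 11 colons were named by the highest Pearson correlation. For Ly6a they were Csta1, a cysteine protease inhibitor of the stefin family (0.981), the adaptor Dok4, the kinase Syk, Plac8 and Mpi (0.947). Csta1 was also nearest to Ly6g (0.944), ahead of Tax1bp3, Cyp2d9, Gfm2 and Pigs. Csta1 was at 18.7 ± 18.1 (SD, n = 5) in Il10-/- colons and 3.88 ± 5.32 (SD, n = 6) in Il10-/- Tnfr1-/- colons. Plac8, at 1566 ± 1095 (SD, n = 5) and 649 ± 539 (SD, n = 6), was at 0.951 with Ly6a.

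Ly6d lay nearest to Slpi, a secreted inhibitor of neutrophil proteases (0.965), then Adgrf1, Cyp2d9, the annexin Anxa8 and Rab3gap1. Slpi was at 48.2 ± 75.2 (SD, n = 5) in Il10-/- colons and 4.42 ± 7.19 (SD, n = 6) in Il10-/- Tnfr1-/- colons. Ly6e lay nearest to Scnn1a, a subunit of the epithelial sodium channel (0.929), then Fam187b, B3gnt7, Mgat4a and the transglutaminase Tgm3. Ly6c1 lay nearest to Eif2s2 (0.942), Mrpl9, Tspo, Tmem50b and Glo1, and Gml and Gml2 to the same 5 genes, Gtf3c5, Myg1, Sars2, Ppie and Spout1. With 11 colons and 13292 genes to choose from, such values are the extreme of many and are given as a description.

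Each member's profile was next set against the summed abundance of marker lists, in 8 relations with a permutation p adjusted over them. A further relation, for Ly6c2, was not run because the gene did not pass the filter. The lists share the genotype contrast that chose the members, so a pooled p is not independent of that choice. Values centred on each genotype's mean are therefore given beside the pooled ones. Centring takes out the genotype contrast only. The members were also chosen with their covariation across colons known, and the lists with earlier results known. A centred p is thus not independent of the choice either.

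Ly6g followed the summed neutrophil markers with r = 0.730 (permutation p = 0.00875, adjusted p = 0.0405) and a Spearman rho of 0.809 (permutation p = 0.00392, adjusted p = 0.0314) over 11 colons. Centred on genotype, r was 0.550 and the relation was not called (permutation p adjusted over the relations 0.288). Without Il10-/- replicates 1 and 6, which lay farthest from the median of the marker sum, r was 0.564 and rho 0.667 over 9 colons, and the relation was no longer called (adjusted permutation p = 0.296). S100a8 alone, an alternative added after seeing the data, gave 0.702 with Ly6g, and 0.425 centred on genotype. It was not particular to Ly6g: S100a8 was at 0.850 with Ly6d, 0.777 with Gml and 0.731 with Gml2. With Ly6a, Ly6c1 and Ly6e it was at 0.675, 0.507 and 0.499.

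The neutrophil list itself was thin in these colons. Of its 21 gene identifiers, 7 passed the filter, 14 had a mean under 1, and Elane, which encodes neutrophil elastase, was at 0 in every colon. The 7 that passed were split, 4 lower and 3 higher in Il10-/- Tnfr1-/- colons. Their median log2 fold change was -0.17, against 0.05 for all tested genes, and none was called. S100a8 and S100a9, which encode the subunits of calprotectin, were at 53.7 ± 68.1 and 19.3 ± 21.9 (SD, n = 5) in Il10-/- and at 3.88 ± 6.08 and 3.10 ± 4.46 (SD, n = 6) in Il10-/- Tnfr1-/- colons. Cd177 was at 7.55 ± 2.32 (SD, n = 5) and 9.66 ± 8.13 (SD, n = 6). Ly6g was above S100a8 in 9 of 11 colons and above S100a9 in all 11, on the scale corrected for length. The list's sum ran from 29.6 to 275 in Il10-/- and from 12.8 to 63.8 in Il10-/- Tnfr1-/- colons, and its part in the Ly6g values was not tested.

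Against the epithelial defence list, which includes Reg3b, Saa1 and Reg3g, Ly6g gave r = 0.411 (adjusted permutation p = 0.251, n = 11), with -0.111 centred on genotype. All 15 genes of that list passed the filter and had a lower mean in Il10-/- Tnfr1-/- colons, with a median log2 fold change of -1.23 against 0.05 for all tested genes, and none was called by limma. The list was drawn up with earlier results of these data known, so its shared direction and the counts below are descriptions only. Saa1, an acute-phase protein of epithelium, was at 5450 ± 4107 (SD, n = 5) and 738 ± 599 (SD, n = 6), and 3 of the 15 genes (Il18, Pla2g4f and Saa2, named after their values were seen) had all Il10-/- Tnfr1-/- colons below all Il10-/- colons, as had 0.271% of all tested genes.

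Ly6a followed the summed interferon response genes with r = 0.71 (permutation p = 0.0158, adjusted p = 0.0421) and rho = 0.718 (permutation p = 0.0163, adjusted p = 0.0478). Centred on genotype r was 0.827 (adjusted permutation p = 0.0261), and in the 6 Il10-/- Tnfr1-/- colons alone it was 0.733. Without Il10-/- Tnfr1-/- replicates 4 and 6, the farthest from the median, r was 0.659 over 9 colons and no longer called (adjusted permutation p = 0.296). The interferon genes themselves were split, with 9 of 22 higher and 13 lower in Il10-/- Tnfr1-/- colons, a median log2 fold change of -0.05 and none called. Irf1, a transcription factor of that response, was at 88.5 ± 36.1 (SD, n = 5) and 63.7 ± 26.6 (SD, n = 6). Ly6e gave r = 0.251 with the same sum (adjusted permutation p = 0.457), and 0.235 centred on genotype.

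Ly6a also followed genes of fetal-like repair epithelium, the state that colonic epithelium takes on after injury, with r = 0.741 (permutation p = 0.0101, adjusted p = 0.0405) and rho = 0.682 (permutation p = 0.0239, adjusted p = 0.0478). Centred on genotype r was 0.791 (adjusted permutation p = 0.0277), while rho was 0.700 and not called (adjusted permutation p = 0.0932). Without Il10-/- replicate 1 and Il10-/- Tnfr1-/- replicate 6, r was 0.603 over 9 colons and no longer called (adjusted permutation p = 0.296), with rho at 0.433. Anxa1, the annexin most abundant in that list, was at 205 ± 91.0 (SD, n = 5) and 134 ± 39.1 (SD, n = 6), and Anxa3 was at 204 ± 129 (SD, n = 5) and 84.2 ± 51.0 (SD, n = 6). Of 10 genes that passed the filter, 7 were lower and 3 higher, and none was called. Their median log2 fold change was -0.10, against 0.05 for all tested genes. The list's sum ran from 418 to 1120 in Il10-/- and from 432 to 1082 in Il10-/- Tnfr1-/- colons.

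**Figure D5:**
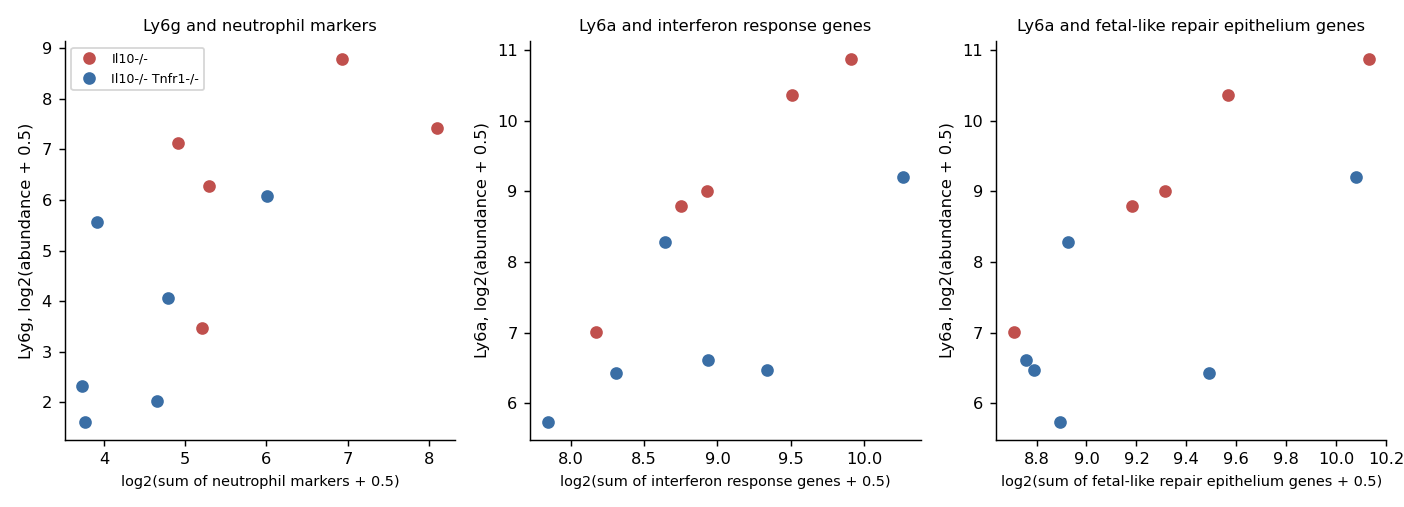
Ly6g against summed neutrophil markers (left), and Ly6a against summed interferon response genes (middle) and fetal-like repair epithelium genes (right), all as log2(abundance + 0.5), 1 point per colon for 5 Il10-/- (red) and 6 Il10-/- Tnfr1-/- (blue) mice. The pooled r is 0.730, 0.71 and 0.741; in the left panel Il10-/- replicates 1 and 6 lie far to the right of the rest.

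Ly6a and Ly6c1, both known from endothelium, had negative correlations with the endothelial sum, r = -0.454 and -0.406 (adjusted permutation p = 0.251 for each, n = 11). Centred on genotype, these values were -0.428 and -0.359. Of the 14 endothelial markers that passed the filter, 12 had a higher mean in Il10-/- Tnfr1-/- colons, with a median log2 fold change of 0.54, and none was called. Egfl7, the most abundant, was at 50.9 ± 31.3 (SD, n = 5) and 42.1 ± 14.7 (SD, n = 6). Ly6d gave r = 0.584 with squamous epithelium markers (permutation p = 0.0497, adjusted p = 0.0994) and rho = 0.700 (adjusted permutation p = 0.0478). Centred on genotype, r was 0.335 and rho 0.445, and neither was called (adjusted permutation p = 0.414 and 0.387). Without Il10-/- replicate 3 and Il10-/- Tnfr1-/- replicate 6, rho was 0.567 over 9 colons and no longer called (adjusted permutation p = 0.393). With equal totals per sample, rho was not called either (adjusted permutation p = 0.244). Of 12 squamous markers 8 had a mean under 1, and the most abundant, Sbsn, was at 9.14 ± 7.44 (SD, n = 5) and 5.79 ± 1.83 (SD, n = 6).

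Markers of the muscle and connective layers differed in mean between the genotypes. The summed smooth muscle markers, led by Actg2, Tagln and Acta2, ran from 184 to 3505 in Il10-/- and from 828 to 8010 in Il10-/- Tnfr1-/- colons. All 10 had a higher mean in the latter, with a median log2 fold change of 1.77, as had all 11 fibroblast markers that passed the filter, with a median of 0.83, and none was called. The monocyte and macrophage sum, 563 to 2914 and 406 to 1793, was mostly Plac8, while Lyz2, the lysozyme of macrophages, had a log2 fold change of 1.10 ± 0.62 (SE). T cell markers were higher for 5 of 5 that passed, and B and plasma cell markers were higher for 1 of 3. The sums of colonic epithelium ran from 7406 to 13642 and from 5902 to 49863, the last value from Il10-/- Tnfr1-/- replicate 6. The part of tissue makeup in the member values was not tested.

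A further 11 Ly6 family genes lie near the cluster on chromosome 15, and 5 passed the filter, 3 lower and 2 higher in Il10-/- Tnfr1-/- colons, with a median log2 fold change of -0.15 and none called. The gene listed as 2010109I03Rik, which RefSeq also names Ly6m, lies inside the cluster between Gml2 and Ly6e (chr15:74876987-74897021). It was at 274, 20.3, 111, 152 and 511 in Il10-/- replicates 1, 2, 3, 5 and 6, and at 12.2 to 111 in Il10-/- Tnfr1-/- colons, with a log2 fold change of -2.15 ± 0.73 (SE, adjusted p = 0.535 by limma). It was at 0.855 with Ly6a and 0.786 with Ly6g.

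BC025446, the gene that RefSeq names Ly6g2, lies just beyond Ly6g (chr15:75216376-75222661) and was at 49.9 ± 17.2 (SD, n = 5) and 24.4 ± 7.22 (SD, n = 6). Its log2 fold change was -0.99 ± 0.25 (SE, adjusted p = 0.535 by limma), and its correlation was 0.931 with Ly6a and 0.916 with Ly6g. The other 3 were smaller in difference: Ly6h at 0.57 ± 0.76 (SE), Gpihbp1, which carries lipoprotein lipase to the vessel lumen, at 0.08 ± 0.47 (SE), and Lynx1, a modulator of nicotinic receptors, at -0.15 ± 0.30 (SE), with limma adjusted p of 0.736, 0.946 and 0.831. Gpihbp1 was at -0.353 with Ly6a.

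Of the 21 protein-coding genes within 500000 bases of the cluster that are no members, 8 passed the filter, 4 with a lower and 4 with a higher mean in Il10-/- Tnfr1-/- colons. Their median log2 fold change was -0.06, none was called, and the Ly6 family genes just described are among them. Inside the span, D730001G18Rik, Cyp11b1 and Cyp11b2 did not pass the filter.

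Of 19 Ly6 family genes on other chromosomes, 9 passed the filter, 7 lower and 2 higher in Il10-/- Tnfr1-/- colons, with a median log2 fold change of -0.35 and none called. Lypd8, which keeps flagellated bacteria off the colonic epithelium, was the most abundant Ly6 family gene at 11005 ± 2785 (SD, n = 5) and 9075 ± 3789 (SD, n = 6). Its log2 fold change was -0.35 ± 0.31 (SE, adjusted p = 0.620 by limma). Cd59b and Cd59a, paralogs that encode inhibitors of complement, went opposite ways. Cd59b was at 47.6 ± 26.7 (SD, n = 5) and 18.8 ± 7.60 (SD, n = 6), and Cd59a was at 7.26 ± 9.72 (SD, n = 5) and 13.8 ± 8.14 (SD, n = 6). Cd59b had all Il10-/- colons above all others, as had 0.271% of all tested genes, and was the only 1 of the 9 whose groups did not overlap. The log2 fold changes of Cd59b and Cd59a were -1.30 ± 0.36 and 1.42 ± 0.62 (SE), each with an adjusted p of 0.535 by limma. Plaur, the urokinase receptor, was at 10.2 ± 5.70 (SD, n = 5) and 8.22 ± 5.19 (SD, n = 6).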

How the data were processed

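RNA of 12 colons is labelled, and 11 were matched by title to a column of the transcript table. The 1 remaining column of per-sample values and the 1 remaining Il10-/- sample (replicate 4) were not used. CASAVA, kallisto and sleuth, and the build mm10, are named in the submitters' processing notes; settings are not given in the sources used here. Per-sample values as deposited are a signal: abundances that the authors scaled, not counts, so depth is unknown. Against the authors' deposited mean on a natural log scale, a slope on log transcript length of 1.10 was found over 17824 transcripts of at least 1000 bases, so the values are divided by length.

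Repeated rows (866) were dropped, and 113193 transcripts were summed to 35688 genes; 96.6% of transcripts were found in GENCODE M21, which gave coordinates. limma 3.58.1 in R 4.3.3, with trend and robust moderation, was run on log2(value + 0.5) for the 13293 genes above 1 in at least 6 samples, with Benjamini-Hochberg adjustment at 0.05. Fold changes are Il10-/- Tnfr1-/- minus Il10-/- on that scale, and understate the change of low genes. The method was tested on simulated data with noise independent between genes, so that test does not give its error rate in these colons. Correlations used 100000 two-sided permutations (numpy 2.4.6). Sequences came from GENCODE and RefSeq (GRCm38.p6). The members and the lists were chosen with earlier results of these data known. Genes named are the members, Ly6 family genes that passed the filter, the most abundant genes of each list described, and the 5 most similar in profile to a member, leaving out predicted, receptor-segment and sex-linked genes; Elane and the deleted genes Tnfrsf1a and Il10 were added, Elane after its values were seen. Alternatives tried were the pseudocount, scaling, filter, name digit and leaving out each colon. Replicates are separate mice, numbered in accession order, and pair no samples. Only Ly6g, Ly6c1 and Ly6c2 were matched in the promoter table.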

Additional observations from a re-analysis of the deposited data

Results flagged for a closer look

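Each member's log2 abundances were examined in each genotype for a colon far from the rest, in 20 groups, of which chance would give about 1. Ly6c2 was at 3.49 in Il10-/- replicate 1, and its distance to the next colon was 0.744 of the group's range. Ly6i was at 0.932 in Il10-/- Tnfr1-/- replicate 2, with a distance of 0.830 of the range. Neither gene passed the filter on low values.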

How the results depend on the processing

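Calls over all genes were 0, but 1 under quantile normalization and 0 to 2 when each colon was left out, 2 without Il10-/- replicate 2. Members whose groups did not overlap were 0, but 1 (Gml) with median-ratio size factors (0.609% of all genes) or quantile normalization (0.677%), 2 (Gml and Gml2; 14.8% of all genes) among names starting with 1, and 0 to 2 when each colon was left out: 2 without Il10-/- replicate 2 (Ly6g and Gml2; 2.52%) and 1 without Il10-/- Tnfr1-/- replicate 3 (Gml; 0.88%). Single member fold changes kept their sign and stayed within 1 SD in 148 further comparisons; Ly6e changed sign (-0.52 to 0.078 when each colon was left out, the latter without Il10-/- replicate 1), and Ly6k moved to -0.42 when taken from its leading transcript. With equal totals per sample the median of all genes went from 0.05 to 0.18, and the adjusted p missed 0.05 for Ly6g with neutrophil markers (0.706, adjusted permutation p = 0.114), Ly6a with interferon genes (0.621, 0.170) and Ly6a with repair epithelium (0.560, 0.200). Centred on genotype, Ly6g gave 0.550 with neutrophil markers and turned to -0.111 with epithelial defence genes. Without the 2 farthest colons these relations were 0.564, 0.659 and 0.603. For each, the cause was not tested. S100a8 alone, Anxa1 alone and the Ly6c1 transcript were chosen after seeing the data. No paired analysis was possible because replicate numbers follow accession order. Depth is unknown, and values near 1 are the least certain.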
